A study of Homo sapiens with 6 samples.

Results

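Epithelial cells hold to one another through junctions, and the 41 genes described here encode the parts of these junctions, the polarity proteins that order them along the cell's sides, and proteins that regulate them or work beside them at the cell surface. They were chosen by name, with earlier results of these data known, as 8 genes of the adherens junction, 10 of the desmosome, 7 of the tight junction, 5 of cell polarity, 5 regulators of transcription and splicing, and 6 others, which are the surface adhesion molecule EPCAM, surface proteases, their inhibitors and a trafficking protein. A probe was taken as belonging to a gene when the transcript it is named for is a RefSeq transcript of that gene. All 41 genes had a probe, 58 probes of the 50599 in all, and 27 of the 41 genes, with 35 probes, gave enough signal to be tested, among 11974 genes tested on the whole array.

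The cells were MDA-MB-231, an established human breast cancer line of the triple-negative type that is known for a mesenchymal look and weak junctions. The 3 groups were transfected in reverse with Ambion precursors, 2 arrays each. One group received the precursor of hsa-miR-205-5p, another that of hsa-miR-214-3p, and the last a scrambled (negative control) precursor, and RNA was taken at 72 h. Total RNA of each sample was labeled with the single dye Cy3 and put on an Agilent SurePrint G3 Human GE array, so each array is 1 sample. Nothing in the labels says that the 2 arrays of a group came from separate cultures, so the p-values measure only the spread between these arrays, and both precursors were set against the same 2 control arrays.

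Both precursors stand for mature microRNAs, short RNAs that pair through their seed (bases 2 to 8, in capitals) with messenger RNAs and lower them. The mature sequences are shown because their precursors are the agents compared.
hsa-miR-205-5p: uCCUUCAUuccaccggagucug
hsa-miR-214-3p: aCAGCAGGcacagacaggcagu
RefSeq places the first at chr1:209432166-209432187 on the plus strand and the second at chr1:172138816-172138837 on the minus strand (GRCh38.p14). The RNA hsa-miR-205-5p is known as a microRNA of epithelial cells that represses ZEB1 and ZEB2.

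Adherens junctions join the actin bundles of neighbouring cells through cadherins and nectins, desmosomes join their keratin filaments through desmosomal cadherins, plakophilins, plakoglobin and desmoplakin, and tight junctions seal the space between cells near the apical side. The Crumbs, Par and Scribble complexes fix where these structures form. Cells that turn mesenchymal are known to lose E-cadherin and many of these parts, and repressors of the ZEB and SNAI families bind the letters CAGGTG in the promoters of such genes.

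Each value below is a normalized log2 signal of a probe, that is log2 of the scanner's background-subtracted intensity minus the array's 75th percentile, so 0 is the array's own 75th percentile. Signals of different probes are not on a common scale, and only arrays are compared. A probe was kept, and so tested, when it was well above background by the scanner software's flag on both arrays of at least 1 group. A gene was read from its kept probe with the highest mean signal. Differences were tested with limma over all 6 arrays, two-sided, and a gene was called higher or lower at a Benjamini-Hochberg adjusted p, over all kept probes, under 0.05 with a change of at least 2-fold (1 on the log2 scale). Between 35.4% and 42.2% of the spots of an array were well above background and 0 were saturated, and the number of arrays limits the precision. The replicates of a group differed by a root mean square of 0.34 (hsa-miR-214-3p), 0.51 (hsa-miR-205-5p) and 0.67 (scrambled control) over all kept probes, so the control was the least even group.

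The labelled line was checked on its markers. Of 9 genes known to mark mesenchymal-like breast lines, 8 were well above background on all 6 arrays, among them VIM, AXL and CD44, and ZEB2 was so on 4. Of 9 luminal epithelial markers, ESR1, PGR and FOXA1 were well above background on no array, and the other 6 were on all. Of 12 fibroblast, leukocyte and endothelial markers, 8 were well above background on no array and 1 (CD68) was on all.

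Of the 27 genes tested, 11 were called higher and 0 lower by limma when hsa-miR-205-5p was set against the scrambled control, with 1 lower, DSG2, at unadjusted p, where 10% of all genes were lower. Over all genes tested, 4.78% were called higher and 7.98% were called lower. Since the list was drawn up with results of these data in view, these shares describe it and are no independent evidence about it. The higher genes were the cadherins CDH1 and CDH3 and the nectin NECTIN2 of the adherens junction, DSP and PKP3 of the desmosome, CGN and F11R of the tight junction, CRB3 of the polarity complexes, the splicing regulator ESRP2, and the surface proteins EPCAM and PRSS8. In the 8 of them well above background on all 6 arrays, the log2 fold changes ran from 1.25 to 2.40. With hsa-miR-214-3p, 0 of the 27 were called higher or lower, where 1.09% of all genes were called higher and 2.03% lower. Set against hsa-miR-214-3p, hsa-miR-205-5p had 9 of the 27 higher (9.18% of all genes) and 1 lower, DSG2 (11.3% of all genes).
Over the 27 genes, the log2 fold change with hsa-miR-205-5p had a median of 0.73, where all tested genes had one of 0.08. With hsa-miR-214-3p the median was 0.07 (all genes −0.01), and between the precursors it was 0.66 (all genes 0.12). A gene that passes the signal filter only where it is high is bound to differ, so the counts are also given for the 22 genes well above background on all 6 arrays, among which 8 were called higher against the control and 0 lower, where 4.9% and 6.85% of all genes passing that filter were. Between the precursors 7 of the 22 were called higher and 0 lower (9.18% and 9.6% of such genes), since DSG2 is not among them. The 3 genes called against the control that lie outside the 22 are CDH3, CRB3 and PRSS8.

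**Figure D1:**
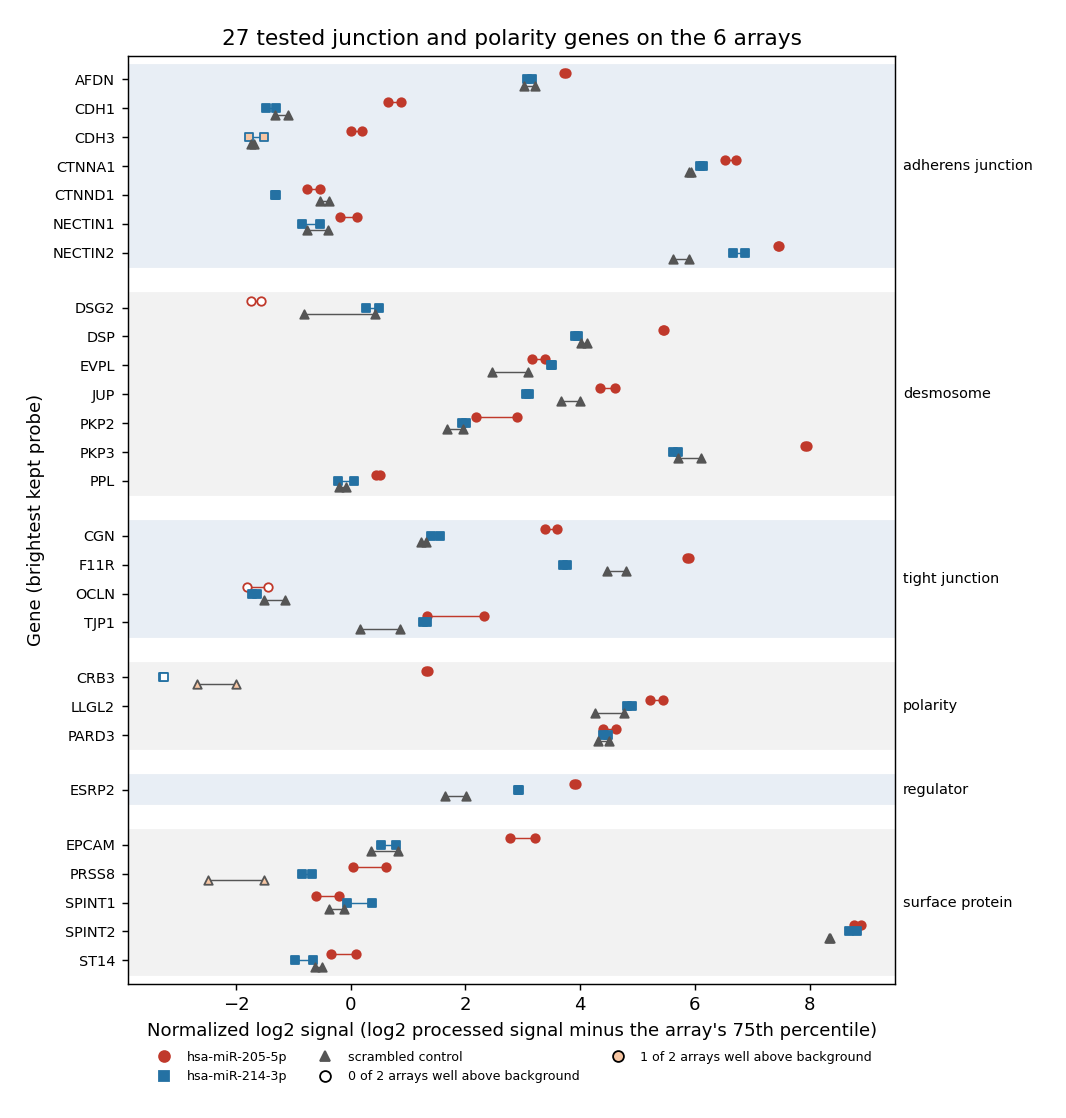
Normalized log2 signal of the brightest kept probe of each of the 27 tested genes (rows, grouped by role) on the 6 arrays, with a line joining the 2 arrays of a group. Open and pale markers show groups in which 0 or 1 of the 2 arrays was well above background. In 20 of the 27 genes both hsa-miR-205-5p arrays lie above all 4 other arrays, and in DSG2 both lie below them.

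Read array by array, as the plot of levels shows, both hsa-miR-205-5p arrays lay above both control arrays in 22 of the 27 genes, which was so in 36.6% of all genes, and below them in 1, DSG2 (28.6% of all genes). They lay above all 4 other arrays in 20 of 27, against 30.2% of all genes. For hsa-miR-214-3p, both arrays lay above both control arrays in 10 of the 27 and below in 8, against 27.7% and 30.7% of all genes, and between the precursors the hsa-miR-205-5p arrays lay above in 21 of the 27 and below in 3, against 45.7% and 34.6% of all genes.

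Among the adherens junction genes, 7 of 8 were tested and 3 were called higher with hsa-miR-205-5p. CDH1 encodes E-cadherin, the main cadherin of epithelial cells. Its signal was 0.87 and 0.64 on the hsa-miR-205-5p arrays, −1.30 and −1.47 on the hsa-miR-214-3p arrays, and −1.09 and −1.33 on the control arrays. Both hsa-miR-205-5p arrays stood well apart above the rest, while the other groups overlapped. The log2 fold change was 1.96 against the control (standard error 0.18, n = 2 arrays per group, limma adjusted p = 0.00800) and 2.15 against hsa-miR-214-3p (limma adjusted p = 0.00388). For hsa-miR-214-3p against the control it was −0.18, with a 95% interval from −0.64 to 0.28 (limma adjusted p = 0.601).
CDH3, the placental cadherin of basal epithelial cells, had nearly the same pattern. It gave 0.01 and 0.19 with hsa-miR-205-5p, −1.51 and −1.77 with hsa-miR-214-3p, and −1.74 and −1.68 in the control. It was well above background on both hsa-miR-205-5p arrays, on both control arrays and on 1 of 2 hsa-miR-214-3p arrays. It was called higher by 1.81 against the control (standard error 0.18, limma adjusted p = 0.00800) and by 1.74 against hsa-miR-214-3p (limma adjusted p = 0.00429).
NECTIN2 encodes a nectin, an immunoglobulin-like receptor that starts adherens junctions, and its 2 kept probes are named for different transcripts. The brighter probe (NM_001042724) gave 7.46 and 7.46 with hsa-miR-205-5p, 6.87 and 6.66 with hsa-miR-214-3p, and 5.90 and 5.62 in the control, so the 3 groups did not overlap and formed 3 steps. It was higher by 1.70 with hsa-miR-205-5p (standard error 0.18, limma adjusted p = 0.00866), and by 1.01 with hsa-miR-214-3p, which missed the threshold (limma adjusted p = 0.0556). The dimmer probe (NM_002856) gave 3.31 and 3.41, then 3.73 and 3.98, then 3.47 and 3.10, in the same order of groups. On it the hsa-miR-205-5p arrays lay within the control's range, with a log2 fold change of 0.08 (limma adjusted p = 0.803), so the call rests on 1 of the 2 probes.
CTNNA1, α-catenin, which ties cadherins to actin, also has 2 kept probes, both named for NM_001903, and they went opposite ways. The brighter gave 6.71 and 6.53 with hsa-miR-205-5p, 6.14 and 6.09 with hsa-miR-214-3p, and 5.90 and 5.94 in the control, higher by 0.70 with hsa-miR-205-5p (limma adjusted p = 0.0360), under the 2-fold limit. The other gave 2.09 and 1.66, then 3.49 and 3.56, then 3.16 and 3.13. It was the 1 probe of the 35 called lower against the control, at −1.27 (standard error 0.20, limma adjusted p = 0.0152), where 8.05% of all kept probes were. Against hsa-miR-214-3p it had a log2 fold change of −1.65 and was called lower (limma adjusted p = 0.00544). No direction for CTNNA1 follows from its probes.
The other adherens junction genes were not called. AFDN, afadin, which links nectins to actin, was higher with hsa-miR-205-5p by 0.63 (limma adjusted p = 0.0478), under 2-fold. CTNND1, p120-catenin, which keeps cadherins at the membrane, had −0.18 with hsa-miR-205-5p and −0.85 with hsa-miR-214-3p (limma adjusted p = 0.0663), and NECTIN1, another nectin, had 0.53 with hsa-miR-205-5p.

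Of the 10 desmosome genes, 7 were tested, and 2 were called higher with hsa-miR-205-5p. PKP3, a plakophilin that packs desmosomal plaques, gave 7.92 and 7.95 with hsa-miR-205-5p, 5.62 and 5.71 with hsa-miR-214-3p, and 6.11 and 5.71 in the control. The hsa-miR-205-5p replicates lay close together (SD 0.02) and far above the other 4 arrays. The log2 fold change was 2.03 against the control (standard error 0.19, limma adjusted p = 0.00800) and 2.27 against hsa-miR-214-3p (limma adjusted p = 0.00383).
DSP encodes desmoplakin, which anchors keratin filaments to the desmosome. Its brighter probe gave 5.44 and 5.46 with hsa-miR-205-5p, 3.95 and 3.90 with hsa-miR-214-3p, and 4.12 and 4.01 in the control. The other probe, named for the same transcript, gave 3.87 and 4.21, then 3.06 and 3.10, then 3.09 and 2.99. On both probes the hsa-miR-205-5p arrays were above all others, and DSP was the only gene of the 7 with more than 1 kept probe in which every kept probe was called higher against the control. The log2 fold changes were 1.38 (standard error 0.15, limma adjusted p = 0.00889) and 1.01 (standard error 0.18, limma adjusted p = 0.0215).
JUP, plakoglobin, which sits in both desmosomes and adherens junctions, differed mainly between the precursors. It gave 4.61 and 4.35 with hsa-miR-205-5p, 3.05 and 3.11 with hsa-miR-214-3p, and 4.0 and 3.67 in the control, so the control lay between the precursors and no groups overlapped. The difference was 1.40 between the precursors (standard error 0.19, limma adjusted p = 0.00762), and the call was lost without either hsa-miR-214-3p array (adjusted p = 0.0660 and 0.0678 by limma). Against the control, neither 0.65 with hsa-miR-205-5p (limma adjusted p = 0.0731) nor −0.75 with hsa-miR-214-3p (limma adjusted p = 0.107) was called.
DSG2, desmoglein 2, a cadherin of desmosomes, was the 1 gene called lower between the precursors. It gave −1.73 and −1.56 with hsa-miR-205-5p, where neither array was well above background, 0.27 and 0.50 with hsa-miR-214-3p, and −0.81 and 0.42 in the control. The control arrays were far apart, and the higher one lay within the hsa-miR-214-3p range. By group means, DSG2 was at least 3.92-fold lower with hsa-miR-205-5p than with hsa-miR-214-3p. The measured log2 fold change was −2.03, with a 95% interval from −3.06 to −1.01 (standard error 0.41, limma adjusted p = 0.0190). Against the mean of the uneven control arrays the bound was 2.63-fold lower, and DSG2 was not called. There the measured value was −1.46, with a 95% interval from −2.48 to −0.43 (limma adjusted p = 0.0615), which reaches changes smaller than the bound. The call was lost without any 1 of the 4 arrays compared, where the adjusted p rose to at most 0.109. Here and below, the bound sets the brighter group's mean against the lowest signal well above background on each dim array. It allows for dim signal only and leaves out the spread between arrays, so the difference itself may be smaller.
The plakophilin PKP2 and the plakins PPL and EVPL, of desmosomes and the cornified envelope, had log2 fold changes of 0.73, 0.62 and 0.49 with hsa-miR-205-5p, and none was called.
The 250 bases before the RefSeq start of DSP (GRCh38.p14, chr6:7541421-7541670, plus strand) are shown because DSP rose on both probes and the window holds CAGGTG, in capitals, 178 and 85 bases before the start. Those before DSG2 (chr18:31497927-31498176, plus strand), which did not rise, hold the letters as often, as CAGGTG and its reverse complement CACCTG.
DSP: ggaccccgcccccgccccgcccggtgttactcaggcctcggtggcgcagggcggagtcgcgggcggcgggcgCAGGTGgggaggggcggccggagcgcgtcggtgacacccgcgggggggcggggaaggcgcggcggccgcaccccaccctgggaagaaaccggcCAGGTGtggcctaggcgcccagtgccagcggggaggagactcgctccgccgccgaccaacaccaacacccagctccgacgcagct
DSG2: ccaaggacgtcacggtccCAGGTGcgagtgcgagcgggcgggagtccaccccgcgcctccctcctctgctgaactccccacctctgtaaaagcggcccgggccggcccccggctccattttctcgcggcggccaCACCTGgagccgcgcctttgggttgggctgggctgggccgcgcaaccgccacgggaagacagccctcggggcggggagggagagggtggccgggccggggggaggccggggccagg

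Of the 7 tight junction genes, 4 were tested, and 2 were called higher with hsa-miR-205-5p. CGN, cingulin, which links the tight junction to actin and myosin, gave 3.38 and 3.60 with hsa-miR-205-5p, 1.55 and 1.41 with hsa-miR-214-3p, and 1.32 and 1.22 in the control. It was higher with hsa-miR-205-5p by 2.22 against the control (standard error 0.17, limma adjusted p = 0.00800) and by 2.01 against hsa-miR-214-3p (limma adjusted p = 0.00383). Both hsa-miR-214-3p arrays also lay above both control arrays, but by only 0.21 (limma adjusted p = 0.512).
F11R encodes JAM-A, a junctional adhesion molecule. Its brighter probe gave 5.89 and 5.86 with hsa-miR-205-5p, 3.77 and 3.71 with hsa-miR-214-3p, and 4.80 and 4.46 in the control, again with the control between the precursors. It was higher with hsa-miR-205-5p by 1.25 against the control (standard error 0.18, limma adjusted p = 0.0135) and by 2.14 against hsa-miR-214-3p (limma adjusted p = 0.00383). The dimmer probe, named for the same transcript NM_016946, gave −0.53 and −1.30, then −0.92 and −0.38, then −1.14 and −0.43. On it the 3 groups overlapped throughout, with a log2 fold change of −0.13 against the control (limma adjusted p = 0.827), so the call rests on the brighter probe.
TJP1, the scaffold ZO-1, gave 2.33 and 1.34 with hsa-miR-205-5p, 1.27 and 1.33 with hsa-miR-214-3p, and 0.86 and 0.17 in the control. With hsa-miR-205-5p its log2 fold change was 1.32, over 2-fold, but the replicates were spread (SD 0.70 and 0.49) and it was not called (limma adjusted p = 0.0714). OCLN, occludin, was well above background on neither array of hsa-miR-205-5p and was not called in any comparison.

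Of the polarity genes, 3 of 5 were tested. CRB3 encodes the epithelial member of the Crumbs proteins, which set up the apical side. It gave 1.34 and 1.31 with hsa-miR-205-5p, −3.27 and −3.25 with hsa-miR-214-3p, and −2.0 and −2.67 in the control. The probe was well above background on both hsa-miR-205-5p arrays, on 1 of 2 control arrays and on neither hsa-miR-214-3p array. The measured log2 fold change against the control, dim on 1 array, was 3.66 (standard error 0.25, limma adjusted p = 0.00800). Against hsa-miR-214-3p, CRB3 was at least 9.98-fold higher (measured log2 fold change 4.59, limma adjusted p = 0.00383). After normexp background correction in place of the scanner software's, the log2 fold change against the control was 1.34, still called but smaller than that of EPCAM (1.59), ESRP2 (1.59), PKP3 (1.56), CGN (1.51) and NECTIN2 (1.43) under the same correction.
LLGL2, a Scribble-complex partner, has 2 kept probes that parted by 1.13 between the precursors. The brighter (NM_001031803) gave a difference of 0.82 for hsa-miR-205-5p against the control (limma adjusted p = 0.0577) and 0.46 against hsa-miR-214-3p. The other (NM_001015002) had 0.27 and −0.66 (limma adjusted p = 0.0403), and neither was called. PARD3, a scaffold of the Par complex, had 0.11 with hsa-miR-205-5p on its brighter probe and −0.57 on the other.
The CRB3 promoter is shown because CRB3 was called higher and its 250 bases before the RefSeq start hold CAGGTG or CACCTG, in capitals, 5 times, more than any other member promoter at hand (GRCh38.p14, chr19:6464021-6464270, plus strand). The matches start 228, 208, 147, 89 and 60 bases before the start.
CRB3: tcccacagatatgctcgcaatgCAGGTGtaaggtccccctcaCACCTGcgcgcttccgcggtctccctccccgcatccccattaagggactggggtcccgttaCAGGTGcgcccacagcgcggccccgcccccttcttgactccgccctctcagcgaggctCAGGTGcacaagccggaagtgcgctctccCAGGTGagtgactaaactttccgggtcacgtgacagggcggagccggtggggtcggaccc
Promoters of this kind were at hand for 20 of the 41 genes, with 31 starts, as some genes have several. On either strand, 14 of the 31 starts (45.2%) hold the letters, against 17.5% of the 35116 starts of all genes. The members called higher with hsa-miR-205-5p had it at 2 of 4 starts (CRB3 and DSP, not CGN or NECTIN2), the tested members not called higher at 7 of 16, and the members not tested at 5 of 11. The called genes CDH1, CDH3, PKP3, F11R, ESRP2, EPCAM and PRSS8 had no promoter at hand, and the shares were not matched for base composition. A match describes the sequence and is not evidence of a bound site.

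Of the 5 regulators, only ESRP2 was tested. It is an epithelial splicing regulator. It gave 3.93 and 3.90 with hsa-miR-205-5p, 2.91 and 2.93 with hsa-miR-214-3p, and 2.01 and 1.64 in the control, the same 3 steps as the brighter NECTIN2 probe. With hsa-miR-205-5p it was higher by 2.09 (standard error 0.19, limma adjusted p = 0.00800). With hsa-miR-214-3p it was higher by 1.09, just short of the threshold (limma adjusted p = 0.0507), and the difference between the precursors, 0.99 (limma adjusted p = 0.0156), was just under 2-fold. Its partner ESRP1 and the transcription factors GRHL1, GRHL2 and OVOL1, which uphold the epithelial state, were well above background on no array.

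Of the 6 surface and traffic genes, 5 were tested and 2 were called higher with hsa-miR-205-5p. EPCAM, an epithelial adhesion molecule, gave 3.21 and 2.77 with hsa-miR-205-5p, 0.53 and 0.80 with hsa-miR-214-3p, and 0.35 and 0.83 in the control. Only the hsa-miR-205-5p arrays stood apart, and the other groups overlapped. The log2 fold change was 2.40 against the control (standard error 0.26, limma adjusted p = 0.00880) and 2.33 against hsa-miR-214-3p (limma adjusted p = 0.00501).
PRSS8, prostasin, is a membrane-anchored protease of epithelia. It gave 0.04 and 0.62 with hsa-miR-205-5p, −0.68 and −0.85 with hsa-miR-214-3p, and −1.51 and −2.49 in the control, where 1 of 2 arrays was well above background. The groups did not overlap, but the control was spread. With hsa-miR-205-5p it was called higher, with a measured log2 fold change of 2.33 against the partly dim control (standard error 0.38, limma adjusted p = 0.0169). After normexp background correction the value was 0.60 and was not called. With hsa-miR-214-3p the difference of 1.24 was not called (limma adjusted p = 0.142), nor was that of 1.10 between the precursors (limma adjusted p = 0.0766).
ST14, matriptase, a protease that acts with prostasin, and its inhibitors SPINT1 and SPINT2 did not pass the test, with log2 fold changes of 0.43, −0.16 and 0.49 with hsa-miR-205-5p.

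**Figure D2:**
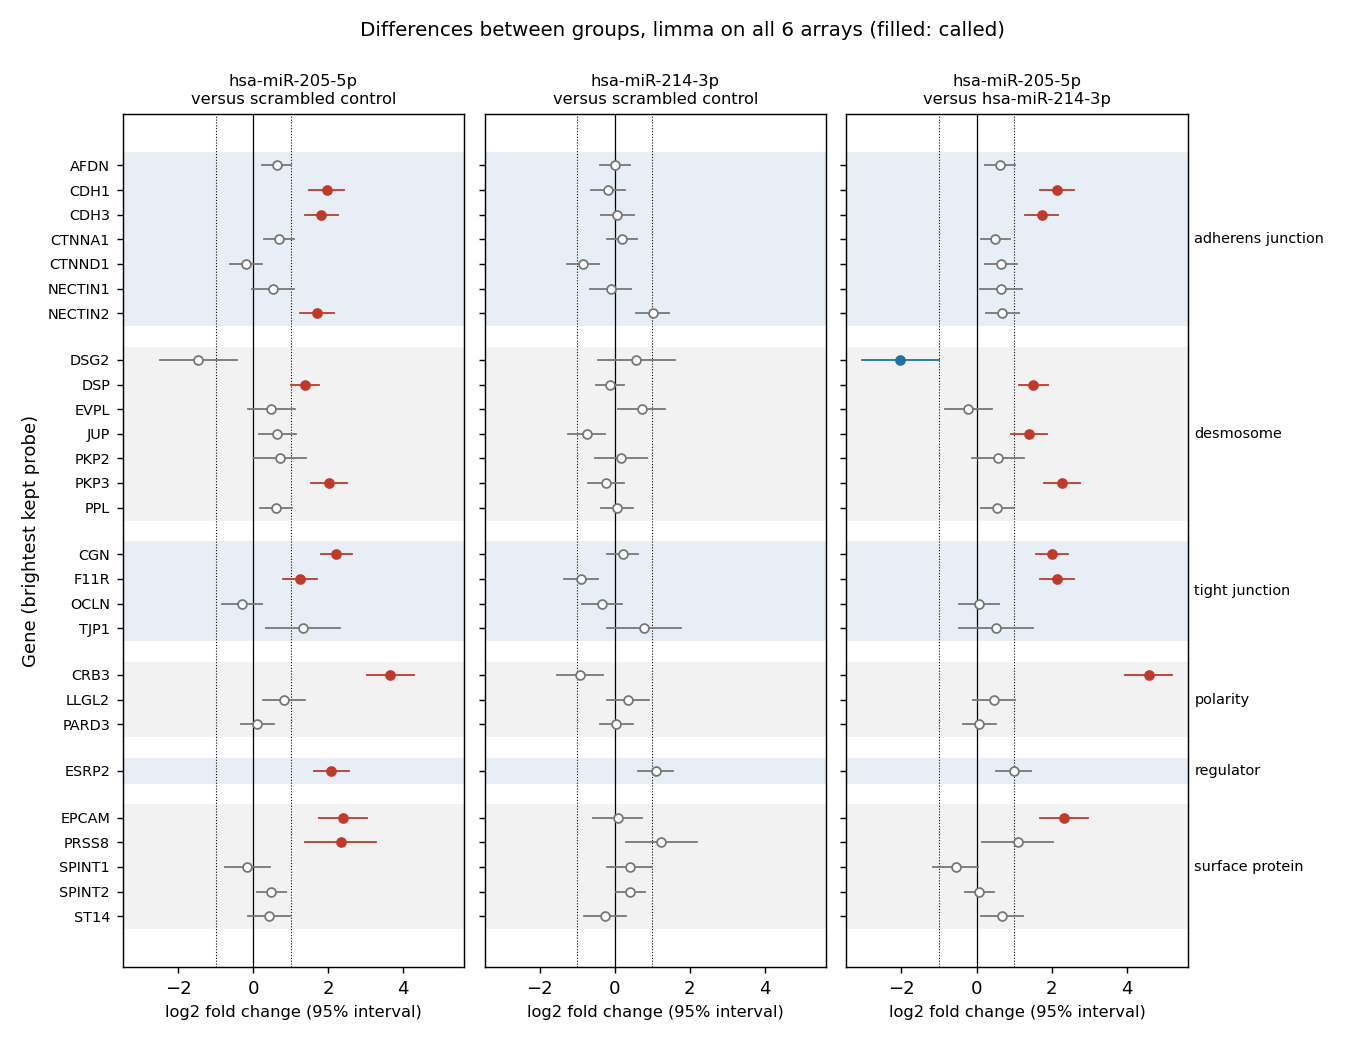
Log2 fold change with its 95% interval (limma) for the brightest kept probe of the 27 tested genes in the 3 comparisons, with dotted lines at 2-fold. Filled red points are called higher and the filled blue point (DSG2) is called lower: 11 in the left panel, 0 in the middle and 10 in the right.

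Seen side by side in the plot of differences, the precursors gave these genes different values against the shared control. The difference between the precursors was tested directly, and CDH1, CDH3, DSP, PKP3, JUP, CGN, F11R, CRB3 and EPCAM were called higher with hsa-miR-205-5p. For NECTIN2, ESRP2 and PRSS8, called with hsa-miR-205-5p against the control, the values with hsa-miR-214-3p lay between the control and hsa-miR-205-5p, and the difference between the precursors was not called. At unadjusted p with the 2-fold limit, these same 3 genes were the ones higher with hsa-miR-214-3p than in the control by limma (2.66% of all genes), and 0 were lower (4.13%).

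**Figure D3:**
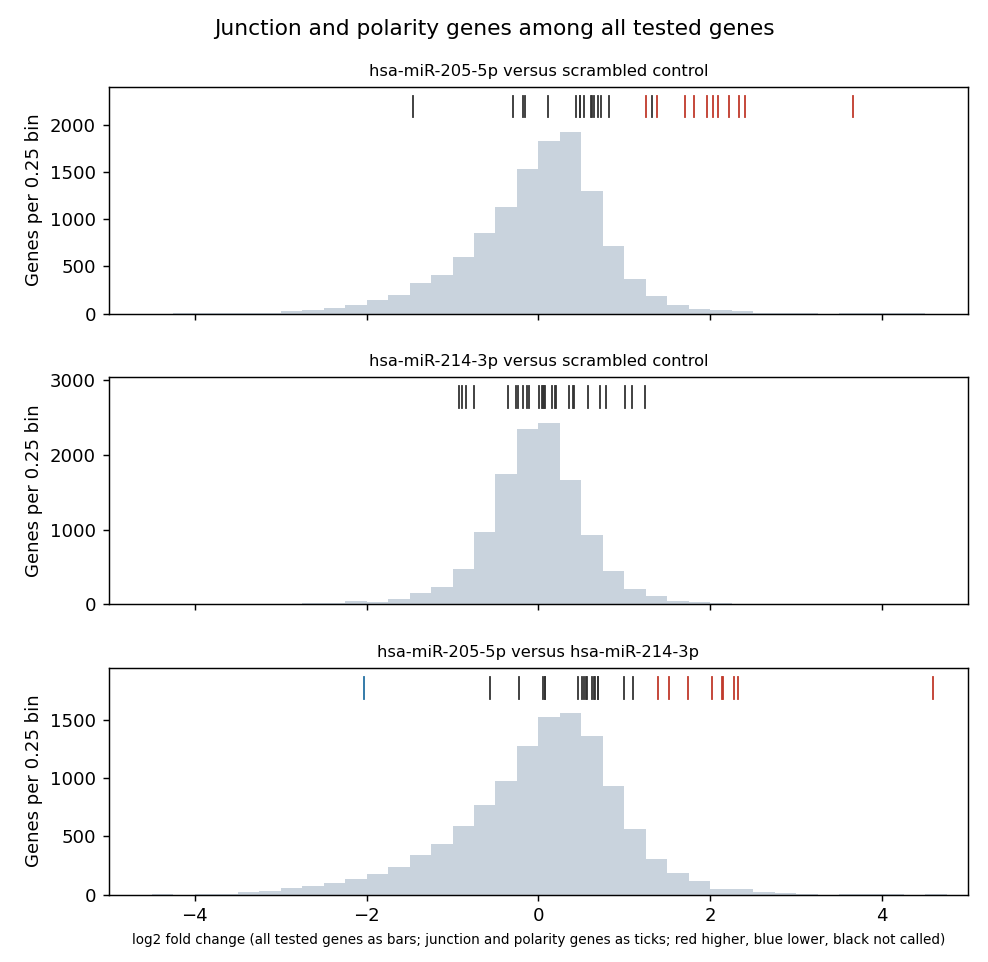
Number of genes (y axis) by log2 fold change in bins of 0.25 (x axis) over the 11974 tested genes, with a tick above for each of the 27 junction and polarity genes (red called higher, blue called lower, black not called). The ticks spread to the right of the bulk for hsa-miR-205-5p against the control (median 0.73, all genes 0.08) and sit on it for hsa-miR-214-3p (median 0.07, all genes −0.01).

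Of the 41 genes, 14 could not be tested, with 19 probes. NECTIN4 of the adherens junction, the desmosomal DSC3 and PKP1, the tight junction genes MARVELD2, MARVELD3 and TJP3, the polarity genes PARD6B and PATJ, the 4 regulators named above, and RAB25, a small GTPase of epithelial traffic, were well above background on no array. The desmocollin DSC2 was so on 1 control array. The position of these genes in the distribution of the tested genes, shown in the histogram of log2 fold changes, is therefore unknown, and so the 11 higher genes are 11 of 27 measured, not of 41.

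**Figure D4:**
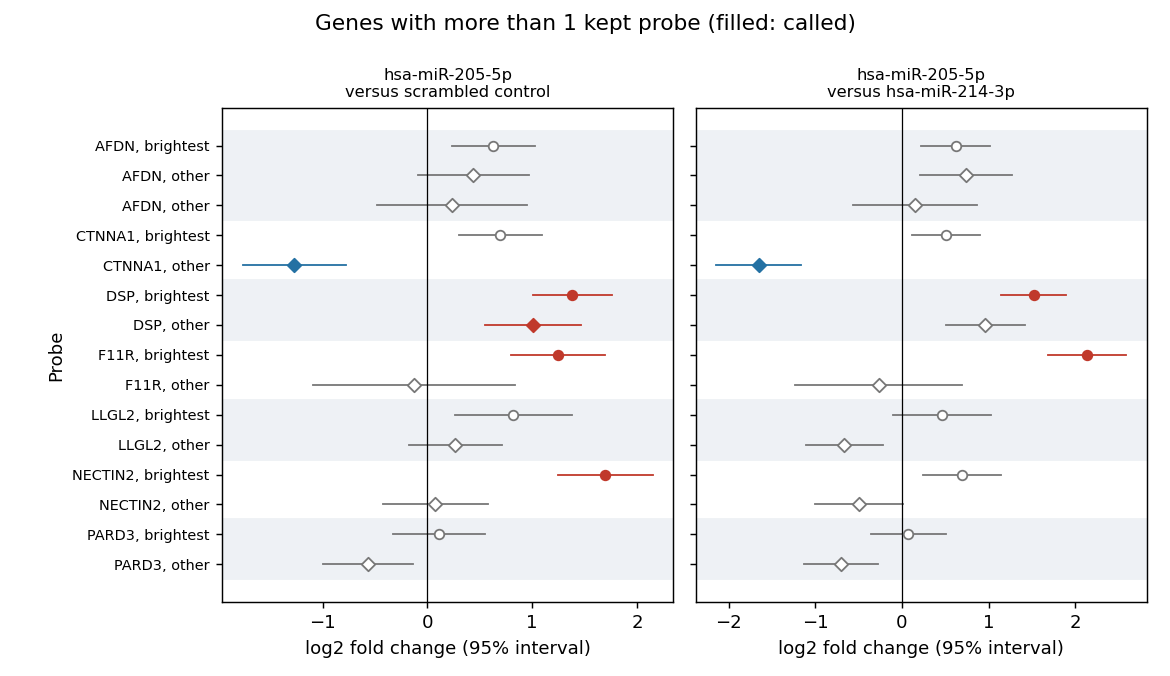
Log2 fold change with its 95% interval (limma) for each kept probe of the 7 genes with more than 1, against the scrambled control and against hsa-miR-214-3p, with circles for the brightest probe, diamonds for the others and filled symbols for calls. The DSP probes lie on the same side, while the CTNNA1 probes fall on either side of 0.

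As the plot of probes shows, of the 7 genes with more than 1 kept probe 3 (CTNNA1, NECTIN2 and F11R) were called on 1 probe and not on the other with hsa-miR-205-5p against the control, and 3 (CTNNA1, DSP and F11R) between the precursors. The probes differed in sign for CTNNA1, PARD3 and F11R in the first comparison, and for these, NECTIN2 and LLGL2 in the second. In hsa-miR-205-5p against the control, the kept probes parted by 1.97 in CTNNA1, 1.62 in NECTIN2 and 1.37 in F11R, and by 0.38 in DSP. Between the precursors, they parted by 2.40 in F11R, 2.16 in CTNNA1, 1.19 in NECTIN2 and 1.13 in LLGL2. By probe, 12 of the 35 kept probes were called higher with hsa-miR-205-5p and 1 lower, where 4.14% and 8.05% of all kept probes were. With hsa-miR-214-3p, 0 of the 35 were called either way (0.991% of all kept probes higher, 1.68% lower). Between the precursors 9 were called higher and 2, of DSG2 and CTNNA1, lower (8.37% and 11.5% of all kept probes).

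A further 65 genes of the same structures, listed by name, were read the same way, and 42 were tested. With hsa-miR-205-5p, 4 were called higher and 1 lower (limma), where 4.78% and 7.98% of all genes were. The median log2 fold change was 0.08, the same as that of all genes. CDH2, N-cadherin, the cadherin of mesenchymal and neural cells, was higher by 1.59 (limma adjusted p = 0.0169), from −1.98 and −1.82 in the control to −0.58 and −0.04. The hsa-miR-214-3p arrays, at −1.11 and −0.70, also lay above the control, by 0.99, which was not called (limma adjusted p = 0.108). PLEKHA7, which holds microtubules at adherens junctions, was higher with hsa-miR-205-5p by 1.31 (limma adjusted p = 0.0345). PRKCZ, an atypical protein kinase C of the Par complex, was higher by 1.10 (limma adjusted p = 0.0241), and CGNL1, the paralog of cingulin, was called higher as well.
PVR, the poliovirus receptor of the nectin family, was the 1 lower gene, at −1.66 (limma adjusted p = 0.0251), with 1.55 and 1.38 with hsa-miR-205-5p, 4.31 and 4.35 with hsa-miR-214-3p, and 2.66 and 3.59 in the control. It was lower still against hsa-miR-214-3p, at −2.86 (limma adjusted p = 0.00511). Between the precursors 3 were called higher and 2 lower (9.18% and 11.3% of all genes). SCRIB, LIMA1 and CGNL1 were higher with hsa-miR-205-5p, by 1.20, 1.19 and 1.03, and ESAM, an endothelial adhesion molecule, was lower at −1.12 (limma adjusted p = 0.00892). Leaving out hsa-miR-205-5p replicate 2 or either hsa-miR-214-3p array left 0 of the calls against the control. With hsa-miR-214-3p against the control, 0 of the 42 were called by limma, and 1 passed at unadjusted p, where 2.66% of all genes were higher and 4.13% lower.

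Markers of cell state were read the same way. With hsa-miR-205-5p against the control, 4.78% of all genes were called higher and 7.98% lower. Of the 9 luminal markers, 6 were tested, and with hsa-miR-205-5p against the control 1 was called higher and 1 lower. KRT19, a luminal keratin, was higher by 1.18 (limma adjusted p = 0.0201), and TFF1, a secreted luminal peptide, was at −2.22 (limma adjusted p = 0.00800). The summed signal of the luminal markers, on the linear scale relative to the 75th percentile, was 2619 to 2813 with hsa-miR-205-5p, 1420 to 1561 with hsa-miR-214-3p and 1406 to 1767 in the control. Such a sum follows its brightest probes, and without the keratins KRT18 and KRT19 it was 358 to 427, 311 to 372 and 259 to 313. That smaller sum still holds the keratin KRT8, its brightest member.
Of the 9 mesenchymal-like markers, 0 were called by limma with hsa-miR-205-5p against the control, and 0 passed at unadjusted p. Their summed signal was 1544 to 1553 with hsa-miR-205-5p, 1669 to 1760 with hsa-miR-214-3p and 1460 to 1483 in the control. VIM, the mesenchymal filament protein, was at −0.10 (limma adjusted p = 0.654), and ZEB1, a repressor of CDH1, had −0.56 (limma adjusted p = 0.148). ZEB2 gave −2.77 and −1.82 with hsa-miR-205-5p, where neither array was well above background, −1.03 and −1.18 with hsa-miR-214-3p, and −2.08 and −1.97 in the control. Between the precursors ZEB2 was called lower, by at least 1.43-fold by group means. The measured log2 fold change was −1.19, with a 95% interval from −2.01 to −0.37 (limma adjusted p = 0.0433).
Of the 12 fibroblast, leukocyte and endothelial markers, only CD68 and PECAM1 were tested, and both were called lower with hsa-miR-205-5p than in the control. CD68, a lysosomal protein of macrophages, was at −1.05 (limma adjusted p = 0.0449). PECAM1, an endothelial adhesion protein, was at least 2.25-fold lower (measured −1.84, limma adjusted p = 0.00899), with neither hsa-miR-205-5p array well above background. The summed signal of the leukocyte markers, from CD68, was 3.72 to 4.74 with hsa-miR-205-5p, 9.52 to 9.79 with hsa-miR-214-3p and 7.04 to 10.8 in the control, and that of the endothelial markers, from PECAM1, was 0.179 to 0.236, 0.373 to 0.434 and 0.720 to 0.753. In RNA from a whole culture, more cells of a kind and more RNA per cell cannot be told apart, and the part of these markers in the result was not tested.
The 11 genes called higher against the control all stayed over 2-fold without either hsa-miR-205-5p array. Their log2 fold changes were 1.23 to 3.64 without replicate 1 and 1.26 to 3.68 without replicate 2. The adjusted calls were lost without hsa-miR-205-5p replicate 2, over the whole array as well as for these genes. Leaving out any other 1 array, 9 to 12 of the 27 were called higher, against 1.72% to 8.89% of all genes. Between the precursors, 6 to 10 were called higher on leaving out 1 array, against 1.17% to 10% of all genes. JUP lost its call there without either hsa-miR-214-3p array, and CDH3 and DSP lost theirs without hsa-miR-214-3p replicate 2. With hsa-miR-214-3p, leaving out scrambled control replicate 2 gave 1 gene called higher and 2 called lower, where 5.47% and 4.14% of all genes were. F11R, PRSS8, CDH1 and CDH3 were also not called against the control after normexp background correction. There CDH1 had a log2 fold change of 0.76 and CDH3 one of 0.51. Between the precursors CDH1 and CDH3 also lost their calls under normexp, at 0.75 and 0.42.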

How the data were processed

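The authors hybridized 6 one-colour arrays and deposited what Agilent Feature Extraction 11.0 wrote for each, in which the processed signal of a spot is a linear, background-subtracted intensity. The log2 table that the authors deposited beside it served here only as an alternative. Groups came from the sample labels. Control spots and outlier spots (245 to 463 per array) were left out, spots of a probe were averaged, log2 was taken and each array's 75th percentile (35.1 to 58.0) was subtracted. Of 50599 probes, 18468 were kept and 15386 of these were matched by transcript accession to a symbol in the RefSeq gene table of GRCh38.p14, used for names only because the array design names another build. Comparisons used limma 3.58.1 in R 4.3.3 on all 6 arrays, where the test had 3 residual and 2.47 prior degrees of freedom, and were tested on simulated data. Figures were drawn with matplotlib 3.10.9.

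Values on each array are given for members called on any kept probe in a comparison and for CDH1 and EPCAM, each probe for members whose probes parted by over 1, other members by range and count, and further genes of the same structures by up to 3 falls and 3 rises. The members, lists and tests were chosen with earlier results of these data known. TJP1, ZEB2 and the called markers are given outside that rule, after their values were seen. The alternatives were normexp (offset 50, on the median signal), quantile normalization, the median or a 75th percentile over detected probes, the deposited log2 table, other filters, a fit on the 4 arrays of a comparison, a block for the replicate number, limma's trend and robust options, the methods' t-test, unadjusted p, no fold limit, other rules for several probes, and leaving out each array.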

Additional observations from a re-analysis of the deposited data

How the results depend on the processing

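The precision is limited by 2 arrays per group, and dim probes give only bounds. No log2 fold change of a called member reversed under any setting tried. Settings that change only the test or its threshold could not reverse one. Unadjusted p and no fold limit, both with limma, could only keep a call. Over all settings, 380 values kept their call and 55 lost it. Between the precursors CGN and PKP3 kept their call in all 21 settings counted for them, and CRB3 in the 20 in which it was tested. Of the members higher with hsa-miR-205-5p against the control (11), normexp left 7 and the methods' t-test after Benjamini-Hochberg adjustment 0. F11R lost its call in 10 settings and PRSS8 in 8. The member count lower in that comparison (0) became 1 after centring on the median and at unadjusted p. For hsa-miR-214-3p against the control, the member count higher (0) became 1 with the 75th percentile over detected probes, with the deposited log2 table and with the mean over probes, 2 with quantile normalization, with probes well above background on all 6 arrays, with limma's trend and robust options and with the methods' t-test at unadjusted p, and 3 with limma at unadjusted p. Between the precursors, the 1 lower member (DSG2) was lost, leaving 0, with normexp, with no filter and with only probes well above background on all 6 arrays. Of the further junction genes, the 5 called with hsa-miR-205-5p against the control became 1 with normexp. They became 3 after median centring, with the deposited log2 table and with the t-test at unadjusted p. With no filter, with only the 4 arrays compared and with the adjusted t-test, 0 were left. With no fold limit there were 8 of the 42 tested, where 9.8% of all genes were higher and 11.3% lower. The 5 called between the precursors became 2 after median centring, 3 with the deposited log2 table and 1 with no filter. With no fold limit they became 9, where 17.9% of all genes were higher and 16% lower. For hsa-miR-214-3p against the control the 0 called became 1 at unadjusted p, where 2.66% of all genes were higher and 4.13% lower. Except where a share of all genes is given, these counts cannot tell a change in these genes from one in the whole array. The cause was not tested. Median centring moved the median of all genes to −0.31 with hsa-miR-205-5p, −0.18 with hsa-miR-214-3p and −0.10 between the precursors, and dropping the filter moved the first to 0.38.

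Leaving out each array in turn gave 0 to 12 members higher and 0 to 1 lower with hsa-miR-205-5p against the control, 0 to 1 higher and 0 to 2 lower with hsa-miR-214-3p, and 6 to 10 higher and 0 to 1 lower between the precursors, with 0 to 6, 0 to 2 and 0 to 5 further genes called in these comparisons. The 2 lower and 1 higher members with hsa-miR-214-3p came without scrambled control replicate 2. The lone array of a group was then assumed to vary like the other groups. With the replicate number as a block, no member count moved by over 1.5 times. The differences between replicates correlated between groups at 0.11, 0.01 and −0.05. The labels tie arrays of the same replicate number by that number only, and these values cannot settle whether they share more.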
